A study of Mus musculus with 8 samples.

Results

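Interferon-stimulated genes are genes whose transcription rises when a cell senses an interferon, and 41 of them were examined in a mouse MPNST cell line with and without p53, before and after MET inhibition. The 41 members were taken by gene symbol from the table of raw counts, which lists 50600 genes. They were chosen by their levels in these libraries, after a rise of such genes with p53 loss had been seen, so the difference between the lines under either treatment is given for them as a description with no test, as is the interaction of line and treatment. The response to capmatinib within a line is another contrast and was tested, but it shares its libraries with the line differences. A choice for low vehicle levels in NF1-MET would raise the response there. A choice for high capmatinib levels in NF1-MET;sgP53 would raise the response in that line. A minimum of 10 counts in 2 or more libraries was met by 37 of the 41 members, which entered the tests. Just inside this limit was *Cmpk2*, with 11 counts in each library of NF1-MET;sgP53 with capmatinib, and just outside was *Rsad2*, with 5 and 16 counts there.

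NF1-MET is a line isolated from a malignant peripheral nerve sheath tumor (MPNST) of a mouse carrying a *Nf1* fl/ko genotype, a lox-stop-lox MET transgene (tg/+) and Plp-creERT (tg/+), in which a tamoxifen-inducible Cre is driven by the Plp promoter. The tumor has amplified *Met* and intact *Trp53*, and the study describes a spontaneous *Cdkn2a* deletion in NF1-MET cells. NF1-MET;sgP53 was made from it with a lentiviral CRISPR vector carrying a guide against *Trp53* and puromycin selection, so that both lines share the other alleles. Each line received vehicle (DMSO) or 100 nM capmatinib, an inhibitor of the MET kinase, for 24 h, and each of the 4 groups has 2 replicate libraries of poly(A) RNA. Whether the transduced cells were cloned is not stated, and the NF1-MET libraries may come from cells with the empty vector, since their columns carry the letters EV. Each genotype is 1 line, so p53 loss cannot be told apart from other differences between the lines, and since the replicates are duplicate cultures, p-values measure the spread between such cultures only.

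Type I interferons bind the receptor of IFNAR1 and IFNAR2, whose kinases JAK1 and TYK2 phosphorylate STAT proteins, STAT2 among them. STAT2 and IRF9 are subunits of the ISGF3 complex, which binds the interferon-stimulated response element (ISRE) in the promoters of its targets. Interferon gamma signals through its own receptor to the gamma-activated site (GAS), and many targets such as IRF1 and the guanylate-binding proteins answer to this arm. The products sense viral RNA, block its translation, degrade it or trap virions.

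Promoter windows of RefSeq (GRCm38.p6, 250 bases before to 50 bases after the annotated start) were found for 31 of the 41 members. The core letters of the ISRE, GAAANNGAA on either strand, occurred in 18 of these 31 windows (58.1%), and 10 windows (32.3%) held them at least 2 times, counting overlapping matches. Among all 27025 genes of the promoter table, 9.76% held the letters and 0.736% held them at least 2 times. The GAS letters, TTCNNNGAA on either strand, occurred in 7 members (22.6%) and in 9.55% of all genes. A match describes letters in a window and is not evidence of binding, and 10 of the 31 windows held neither motif.

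The windows below are those of *Isg15* and of the members with the highest mean levels among those with a window. *Trim25* and *Eif2ak2* were highest among members whose window holds an ISRE core, and *Ifit2* and *Irf1* among members with none. They include genes that rose with capmatinib and *Ifit2*, which fell. Each runs 5′ to 3′ on the strand of its gene, and capitals mark the ISRE core, or in *Irf1* the GAS letters. The 150 bases upstream of the start are printed for *Isg15* (chr4:156200819-156200968, minus strand), *Ifit1* (chr19:34640739-34640888, plus strand), *Gbp2* (chr3:142620513-142620662, plus strand), *Irf1* (chr11:53769864-53770013, plus strand), *Trim25* (chr11:88999253-88999402, plus strand) and *Ifit2* (chr19:34550544-34550693, plus strand). For *Eif2ak2* the 30 bases around its matches downstream of the start are printed (chr17:78882533-78882562, minus strand). *Ifit1* and *Gbp2* were added to this set after their values were seen.
Isg15: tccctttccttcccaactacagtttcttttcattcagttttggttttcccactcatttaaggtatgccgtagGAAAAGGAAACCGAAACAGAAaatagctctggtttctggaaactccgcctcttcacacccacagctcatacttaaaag
Ifit1: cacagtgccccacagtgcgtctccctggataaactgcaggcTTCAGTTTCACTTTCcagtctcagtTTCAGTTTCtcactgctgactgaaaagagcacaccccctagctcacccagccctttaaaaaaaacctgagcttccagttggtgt
Gbp2: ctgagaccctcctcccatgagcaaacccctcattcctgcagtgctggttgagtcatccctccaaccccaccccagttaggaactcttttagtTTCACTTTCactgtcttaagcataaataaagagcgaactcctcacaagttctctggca
Irf1: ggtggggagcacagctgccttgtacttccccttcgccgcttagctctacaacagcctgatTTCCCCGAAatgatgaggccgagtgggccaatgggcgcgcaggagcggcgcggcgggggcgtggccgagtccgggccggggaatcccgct
Trim25: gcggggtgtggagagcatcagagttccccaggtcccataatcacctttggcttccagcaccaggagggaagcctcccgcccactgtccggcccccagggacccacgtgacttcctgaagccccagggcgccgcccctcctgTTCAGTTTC
Eif2ak2: tccgccggGAAAACGAAACAGAAgagaacc
Ifit2: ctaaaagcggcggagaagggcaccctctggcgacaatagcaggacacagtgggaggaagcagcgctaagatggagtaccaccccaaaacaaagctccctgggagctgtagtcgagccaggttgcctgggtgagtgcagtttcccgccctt
The matches of *Isg15* overlap into a run of 3 cores that begins 78 bases upstream of the start, and the *Ifit1* window also holds 3 cores, the farthest at 109 bases. *Gbp2* has 1 core 58 bases upstream and *Trim25* has 1 core ending at the start itself. *Irf1* has no ISRE core and 1 match to the GAS letters 90 bases upstream. The window of *Ifit2* holds no ISRE core, although it is a neighbor of *Ifit1*, *Ifit3* and *Ifit3b* in a cluster of 99.3 kb on chromosome 19, where each of the other members has 3 cores.

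**Figure D1:**
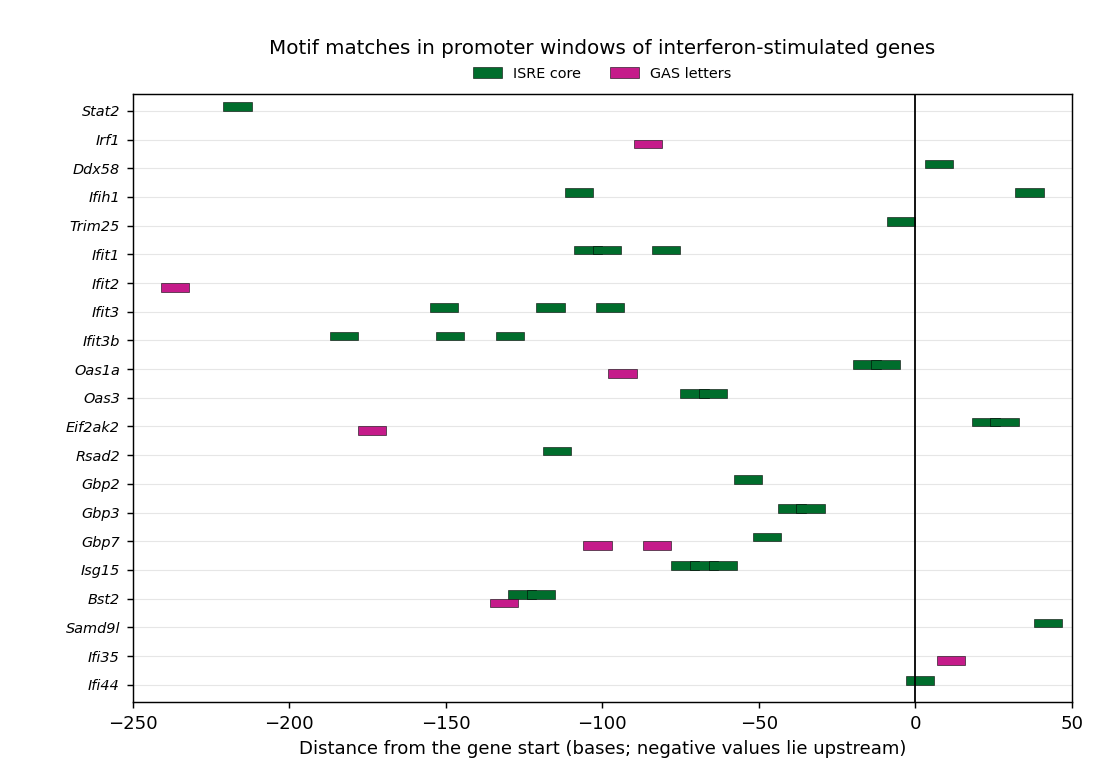
Positions of matches to the ISRE core (green) and the GAS letters (magenta) in the promoter windows of the 21 members that hold either, as distance in bases from the annotated start (vertical line), with negative values upstream. The 3 overlapping cores of *Isg15* begin 78 to 66 bases upstream, and *Irf1*, *Ifit2* and *Ifi35* hold GAS letters only.

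The libraries held 30.1 M to 42.8 M counts, so that 3 counts correspond to 0.0702 to 0.108 CPM (counts of a gene per 1000000 counts of its library, here scaled with TMM factors). Against NF1-MET, *Trp53* transcripts of NF1-MET;sgP53 differed by -0.94 (SE 0.0327, adjusted p = 2.48e-14) in vehicle and -0.89 (SE 0.0290, adjusted p = 4.78e-13) in capmatinib on the log2 scale (edgeR's quasi-likelihood test, Benjamini-Hochberg adjusted over all genes), which measures RNA and not the edited sequence. Its target *Cdkn1a* differed by -1.69 (SE 0.0439, adjusted p = 3.16e-16) and -1.95 (SE 0.0536, adjusted p = 1.39e-13). The transcript *Gm42418*, which overlaps ribosomal RNA, took 1.11% to 13.1% of counts, and without it the counts of members called in the capmatinib comparisons were the same. Of 11 leukocyte markers 6, among them *Itgam*, *Cd3e* and *Tyrobp*, had 0 counts in all libraries, and 3 were tested, of which 2 were called lower with capmatinib in each line and *Csf1r*, at 7 to 30 counts a library, higher by 1.88 and 1.14. The summed level of the list was 12.9 and 11.7 (vehicle) and 8.24 and 7.71 CPM (capmatinib) in NF1-MET, against 9.19 and 9.27 (vehicle) and 5.96 and 6.64 CPM (capmatinib) in NF1-MET;sgP53. The 4 endothelial markers summed to at most 0.358 CPM and the 4 epithelial markers to at most 0.727 CPM. Of the Schwann lineage, *Sox10* had at most 7 counts and *S100b* at most 21 counts in a library. Of 12 tested genes of the Schwann and MPNST list 5 rose and 3 fell with capmatinib in NF1-MET. Over all genes tested there, 35.5% were called higher and 34.7% lower. For NF1-MET;sgP53 the list held 5 rises and 4 falls, while 34.2% of all genes were called higher and 33.4% lower. The counts of this list lie near those shares, and nothing is read from them. *Gap43* fell, with -2.72 (NF1-MET) and -2.52 (NF1-MET;sgP53), and so did *Sox9*, with -2.02 and -1.45, whereas *Pmp22* and *Egr2* rose by 2.14 and 2.18 in NF1-MET and by 2.03 and 1.83 in NF1-MET;sgP53, and the part of such shifts in the results was not tested.

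As a group the members were lowest in NF1-MET with vehicle and highest in NF1-MET;sgP53 with capmatinib. The levels of the 41 members summed to 224.7 and 226.6 (vehicle) and 465 and 463 CPM (capmatinib) in NF1-MET, against 315 and 317 (vehicle) and 699 and 681 CPM (capmatinib) in NF1-MET;sgP53. No library of any group overlapped with another group in this sum, and the replicates of a group differed by far less than the groups did. Of the 37 members that passed the filter, 34 had both libraries of NF1-MET;sgP53 with capmatinib above the other 6 libraries, which held for 13.5% of all genes, the exceptions being *Irf1*, *Ifit2* and *Oasl1*. Both libraries of NF1-MET with vehicle were the lowest for 29 members (18.8% of all genes), and 28 members showed both orders (8.26% of all genes). Because the difference between the lines chose the members, nothing is read from these counts. In bulk RNA, more cells that express a gene and more RNA per cell cannot be told apart.

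**Figure D2:**
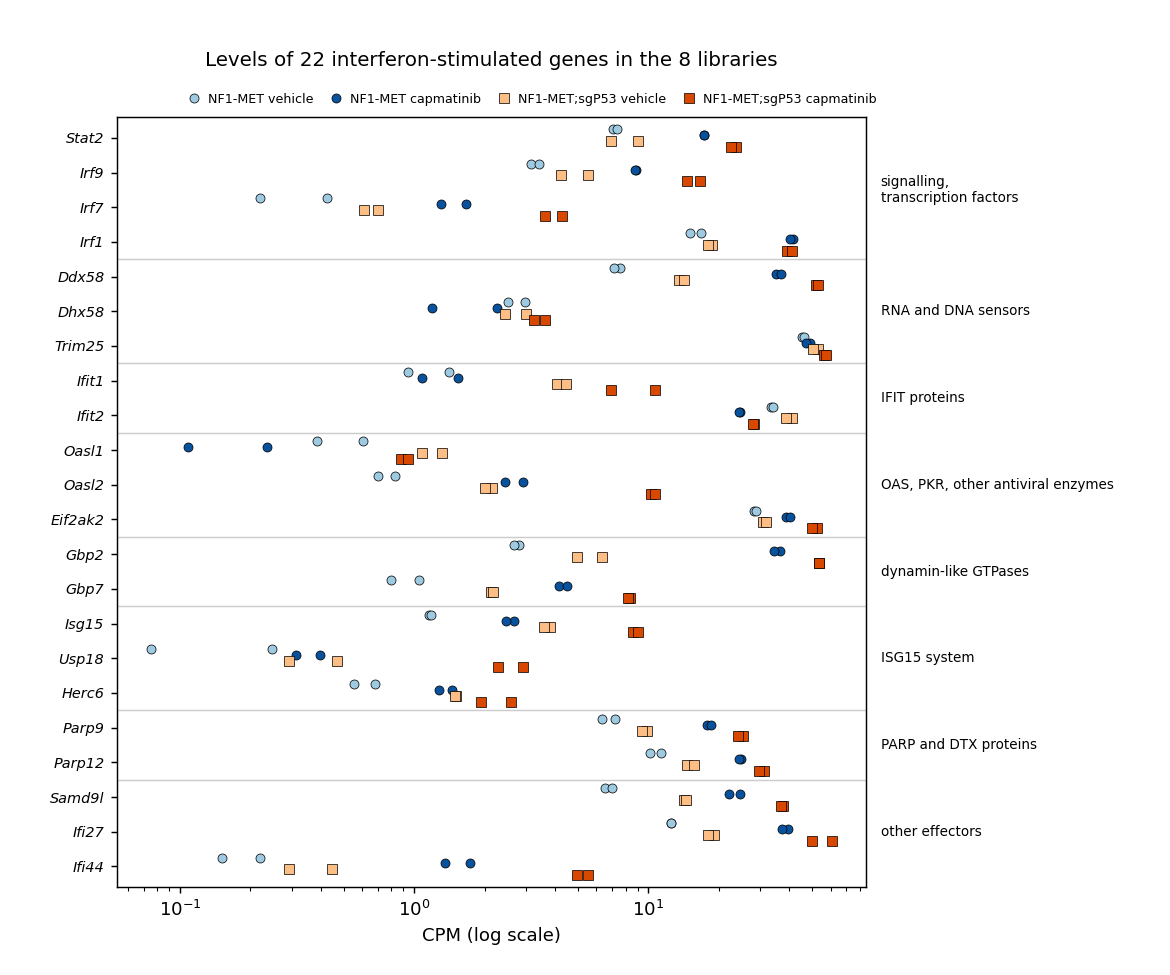
Levels of 22 members in each of the 8 libraries in CPM on a log axis, ordered by role, with circles for NF1-MET, squares for NF1-MET;sgP53, light symbols for vehicle and dark symbols for capmatinib. Most genes run from the light circles of NF1-MET with vehicle to the dark squares of NF1-MET;sgP53 with capmatinib, while *Ifit2* and *Oasl1* lie lower with capmatinib than with vehicle in both lines.

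The first comparison asks how the members respond to MET inhibition in cells with p53. Of 36 members tested in NF1-MET, 26 rose with capmatinib and 3 fell (edgeR's quasi-likelihood test, adjusted p under 0.05), and 23 of those that rose did so at least 2-fold. Over all genes tested 35.5% were called higher, 34.7% lower and 11.5% at least 2-fold higher. The median log2 fold change of the members was 1.26, beside 0.00 over all genes. All 4 signalling and transcription factors, all 4 PARP and DTX members and all 8 of the other effectors rose, while of the 4 IFIT members none rose and 1 fell. The 3 members that fell were *Ifit2*, *Dhx58* and *Oasl1*, and 1 remained without vehicle replicate 2, without capmatinib replicate 1 or with DESeq2's Wald test.

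The second comparison asks the same in NF1-MET;sgP53. Here 34 of 37 members rose and 1 fell, and 29 rose at least 2-fold, beside 34.2% of all genes called higher, 33.4% lower and 10.4% at least 2-fold higher. The median log2 fold change was 1.51, beside 0.00 over all genes. All 3 genes of the ISG15 system, all 3 guanylate-binding proteins and 3 of the 4 IFIT members rose. *Cmpk2*, *Mx1* and *Mx2* passed the filter only through the capmatinib libraries of this line, so that they had to be higher there, and without them 31 of 34 members rose and 1 fell, with 26 rising at least 2-fold and a median of 1.45. Over both lines, in a model that also holds the line, 33 members rose (38.0% of all genes), 27 of them at least 2-fold (11.2%), and 2 fell (35.8%), with a median of 1.45. *Ifit2* and *Oasl1* were the members that fell, and *Oasl1* lay near the threshold (adjusted p = 0.0372, edgeR's quasi-likelihood test). Without those 3 genes and *Zbp1*, which passed only through capmatinib libraries, 29 of 33 rose and 2 fell, with 23 rising at least 2-fold and a median of 1.39. The library totals themselves, used in place of TMM factors, gave a median over all genes of -0.18 for NF1-MET, -0.12 for NF1-MET;sgP53 and -0.15 over both lines. With them 24.2% of all genes were called higher and 44.0% lower for NF1-MET, 22.5% and 34.0% for NF1-MET;sgP53, and 27.4% and 44.8% over both lines, while the members called higher numbered 26, 32 and 33.

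**Figure D3:**
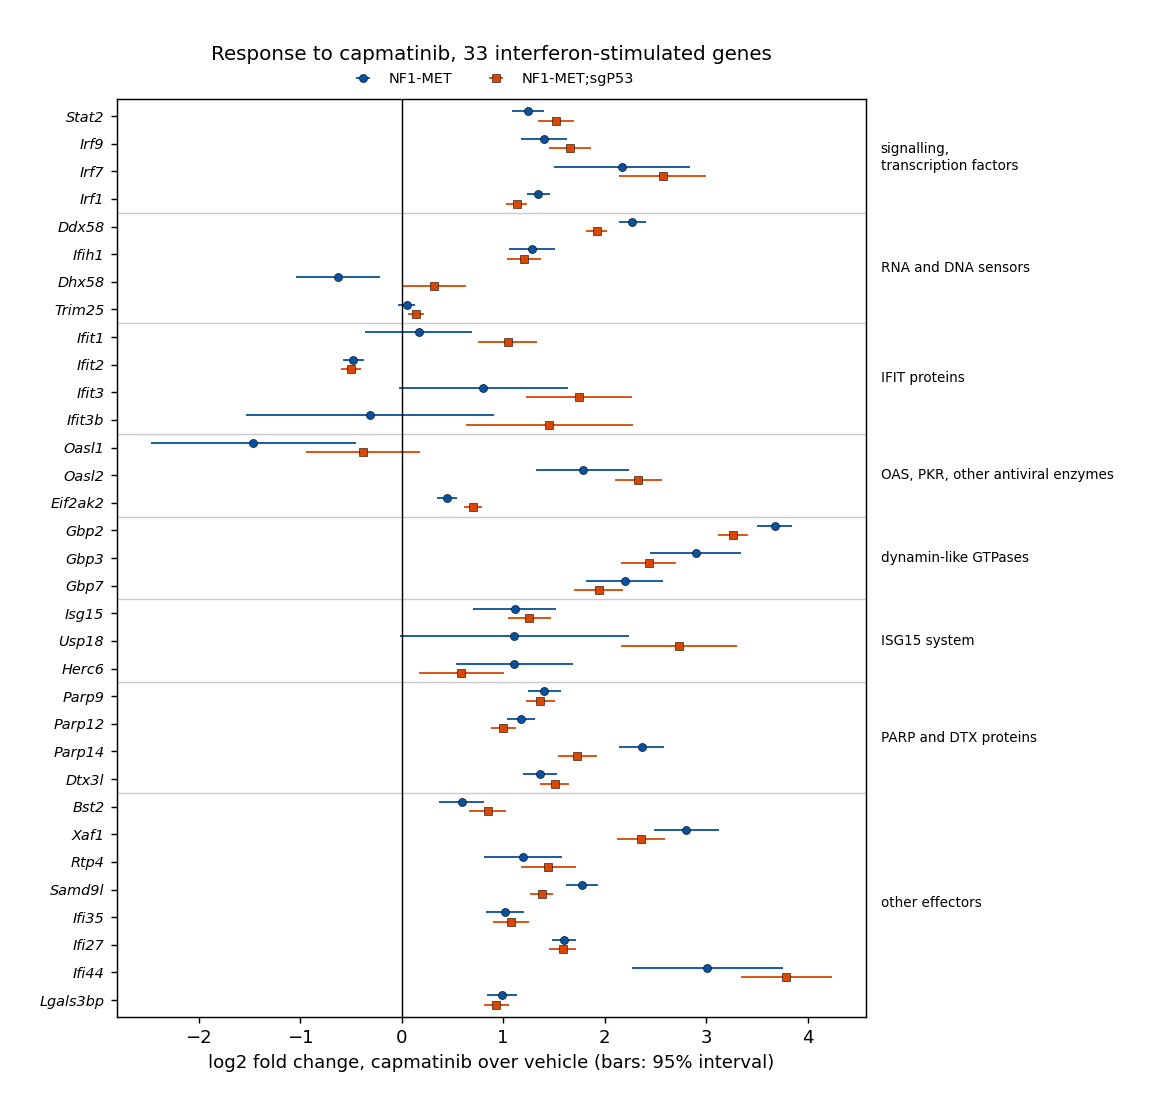
Log2 fold change of capmatinib over vehicle for 33 members with more than 3 counts in each group, in NF1-MET (blue circles) and NF1-MET;sgP53 (orange squares), with bars for the 95% interval taken as 1.96 standard errors. *Gbp2* and *Ifi44* lie farthest to the right in the respective lines at 3.67 and 3.79, and *Ifit2* lies left of 0 in both.

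By library, 30 of the 37 members had both capmatinib libraries above both vehicle libraries in each line, and 2, *Ifit2* and *Oasl1*, had both below in each line. *Dhx58* was lower with capmatinib in both libraries of NF1-MET and higher in both of NF1-MET;sgP53. The groups overlapped in NF1-MET and were apart in NF1-MET;sgP53 for *Ifit1*, *Ifit3b*, *Cmpk2* and *Mx1*. Over all genes the groups were apart with capmatinib higher for 43.2% (NF1-MET) and 41.9% (NF1-MET;sgP53), and with capmatinib lower for 40.4% and 40.6%.

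The transcription factors of the pathway rose in both lines. *Stat2*, a subunit of ISGF3, was at 7.05 and 7.37 (vehicle) and 17.3 and 17.3 CPM (capmatinib) in NF1-MET, against 6.92 and 9.06 (vehicle) and 23.8 and 22.5 CPM (capmatinib) in NF1-MET;sgP53. Its vehicle libraries overlapped between the lines and both capmatinib groups stood apart from them. *Stat2* rose by 1.24 (SE 0.0814, adjusted p = 5.90e-15) in NF1-MET and 1.52 (SE 0.0912, adjusted p = 1.47e-12) in NF1-MET;sgP53 on the log2 scale (edgeR's quasi-likelihood test, Benjamini-Hochberg adjusted, as for all such values that follow). *Irf9*, the DNA-binding subunit of ISGF3, was at 3.17 and 3.41 (vehicle) and 8.82 and 8.77 CPM (capmatinib) in NF1-MET, against 4.25 and 5.52 (vehicle) and 16.6 and 14.7 CPM (capmatinib) in NF1-MET;sgP53. The 4 groups of *Irf9* did not overlap, and it rose by 1.40 (SE 0.116, adjusted p = 2.06e-12) in NF1-MET and 1.66 (SE 0.106, adjusted p = 4.10e-12) in NF1-MET;sgP53. *Irf7*, which drives the transcription of type I interferon genes, was scarce with vehicle, at 0.2204 and 0.426 (vehicle) and 1.301 and 1.67 CPM (capmatinib) in NF1-MET, against 0.611 and 0.702 (vehicle) and 4.28 and 3.61 CPM (capmatinib) in NF1-MET;sgP53. With capmatinib it rose by 2.17 (SE 0.342, adjusted p = 1.29e-06) in NF1-MET and 2.57 (SE 0.219, adjusted p = 6.41e-10) in NF1-MET;sgP53, again with no overlap among the 4 groups. *Irf1*, a target of the gamma arm, was at 16.8 and 15.04 (vehicle) and 41.3 and 40.4 CPM (capmatinib) in NF1-MET, against 18.6 and 18.05 (vehicle) and 39.2 and 41.01 CPM (capmatinib) in NF1-MET;sgP53. Its capmatinib libraries overlapped between the lines, and in each line they lay above the vehicle libraries. *Irf1* rose by 1.35 (SE 0.0583, adjusted p = 1.17e-19) in NF1-MET and 1.13 (SE 0.0541, adjusted p = 2.70e-14) in NF1-MET;sgP53. Exons of *Irf9* and *Irf7* overlap those of *Rnf31* and *Phrf1*, and since the strand setting of the counting is not stated, reads of the shared bases are uncertain.

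Among the sensors, *Ddx58* and *Ifih1* rose in both lines, and *Trim25* moved little. *Ddx58* encodes RIG-I, which detects viral RNA in the cytosol, and was at 7.58 and 7.15 (vehicle) and 34.99 and 36.7 CPM (capmatinib) in NF1-MET, against 13.6 and 14.2 (vehicle) and 52.2 and 52.9 CPM (capmatinib) in NF1-MET;sgP53. No group overlapped with another, and *Ddx58* rose by 2.27 (SE 0.0687, adjusted p = 6.87e-24) in NF1-MET and 1.92 (SE 0.0523, adjusted p = 1.20e-18) in NF1-MET;sgP53. *Ifih1*, which encodes the RNA sensor MDA5, rose by 1.28 (SE 0.115, adjusted p = 1.30e-11) and 1.21 (SE 0.0848, adjusted p = 2.39e-11). *Dhx58* encodes LGP2, a relative of RIG-I that modulates both sensors, and was at 2.51 and 2.98 (vehicle) and 1.19 and 2.27 CPM (capmatinib) in NF1-MET, against 2.44 and 2.996 (vehicle) and 3.603 and 3.25 CPM (capmatinib) in NF1-MET;sgP53. The capmatinib libraries lay below the vehicle libraries in NF1-MET and above them in NF1-MET;sgP53. *Dhx58* fell in NF1-MET, with -0.63 (SE 0.211, adjusted p = 0.00919), and gave 0.32 (SE 0.161, adjusted p = 0.0841) in NF1-MET;sgP53. The call in NF1-MET was lost with DESeq2 (adjusted p = 0.0685), without vehicle replicate 2 (0.0644) and without capmatinib replicate 1 (0.228), and the value in NF1-MET;sgP53 was called without its vehicle replicate 2 (0.49, adjusted p = 0.0371). *Trim25*, a ubiquitin ligase that activates RIG-I, was at 45.2 and 46.2 (vehicle) and 49.1 and 46.9 CPM (capmatinib) in NF1-MET, against 52.8 and 50.3 (vehicle) and 56.3 and 57.2 CPM (capmatinib) in NF1-MET;sgP53. Capmatinib libraries lay just above the vehicle libraries of their line, with values of 0.05 (SE 0.0428, adjusted p = 0.292) in NF1-MET and 0.14 (SE 0.0388, adjusted p = 0.00317) in NF1-MET;sgP53. The latter call was lost with library totals (0.02, adjusted p = 0.906), with DESeq2 (0.0662) and without vehicle replicate 2 (0.0607), and over both lines the sign turned to -0.057 with library totals. *Zbp1*, a sensor of Z-form nucleic acid, had 1 and 2 (vehicle) and 11 and 32 counts (capmatinib) in NF1-MET, against 10 and 7 (vehicle) and 64 and 69 counts (capmatinib) in NF1-MET;sgP53. The vehicle groups held the fewest counts, and since NF1-MET with vehicle held 3 counts in all, no fold is given for it there, while in NF1-MET;sgP53 *Zbp1* rose by 3.05 (SE 0.356, adjusted p = 1.01e-07).

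The IFIT family, whose products bind foreign RNA and hold back its translation, was the role with the fewest rises in NF1-MET. *Ifit1* was at 0.937 and 1.404 (vehicle) and 1.08 and 1.54 CPM (capmatinib) in NF1-MET, against 4.07 and 4.45 (vehicle) and 6.92 and 10.7 CPM (capmatinib) in NF1-MET;sgP53. In NF1-MET the treatments overlapped, with a log2 fold change of 0.17 (SE 0.2701, adjusted p = 0.598), whereas in NF1-MET;sgP53 both capmatinib libraries exceeded both vehicle libraries and *Ifit1* rose by 1.04 (SE 0.149, adjusted p = 2.07e-06). The difference between these responses was 0.86 (SE 0.346), which did not reach the threshold that the interaction uses. *Ifit2*, at 33.3 and 34.1 (vehicle) and 24.6 and 24.4 CPM (capmatinib) in NF1-MET, against 41.1 and 38.7 (vehicle) and 28.4 and 27.9 CPM (capmatinib) in NF1-MET;sgP53, fell in both lines. Its capmatinib libraries lay below its vehicle libraries in each line with no overlap, with -0.47 (SE 0.05297, adjusted p = 1.71e-09) in NF1-MET and -0.50 (SE 0.0497, adjusted p = 7.58e-09) in NF1-MET;sgP53. *Ifit2* was the most abundant IFIT member per length, with 8.04 CPM per kilobase of exon on average against 1.46 for *Ifit1*. *Ifit3* and *Ifit3b* are near-identical copies between which reads may be split, and they gave 0.81 (SE 0.424, adjusted p = 0.0916) and -0.31 (SE 0.623, adjusted p = 0.673) in NF1-MET. In NF1-MET;sgP53 they rose by 1.75 (SE 0.266, adjusted p = 4.94e-06) and 1.46 (SE 0.419, adjusted p = 0.00406).

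The antiviral enzymes were mixed. *Oasl2*, an OAS-like protein, was at 0.826 and 0.702 (vehicle) and 2.93 and 2.45 CPM (capmatinib) in NF1-MET, against 2.15 and 2.01 (vehicle) and 10.3 and 10.6 CPM (capmatinib) in NF1-MET;sgP53. The 2 vehicle libraries of each line lay below its capmatinib libraries, and *Oasl2* rose by 1.78 (SE 0.233, adjusted p = 4.25e-08) in NF1-MET and 2.33 (SE 0.117, adjusted p = 6.40e-14) in NF1-MET;sgP53. Its neighbor *Oasl1*, which lacks synthetase activity, was at 0.386 and 0.602 (vehicle) and 0.108 and 0.234 CPM (capmatinib) in NF1-MET, against 1.31 and 1.08 (vehicle) and 0.879 and 0.937 CPM (capmatinib) in NF1-MET;sgP53. Capmatinib libraries lay below vehicle libraries in both lines. *Oasl1* fell, with -1.46 (SE 0.515, adjusted p = 0.0126) in NF1-MET and gave -0.38 (SE 0.288, adjusted p = 0.2502) in NF1-MET;sgP53. The former call was lost with DESeq2 (adjusted p = 0.0972), without vehicle replicate 2 (0.147) and without capmatinib replicate 1 (0.0968). *Eif2ak2* encodes PKR, the kinase that halts translation on double-stranded RNA, and was at 28.2 and 28.9 (vehicle) and 38.5 and 40.1 CPM (capmatinib) in NF1-MET, against 30.8 and 31.9 (vehicle) and 52.5 and 49.9 CPM (capmatinib) in NF1-MET;sgP53. The 4 groups of *Eif2ak2* did not overlap, and it rose by 0.45 (SE 0.0496, adjusted p = 1.49e-09) in NF1-MET and 0.71 (SE 0.0452, adjusted p = 4.68e-12) in NF1-MET;sgP53. *Cmpk2*, a mitochondrial nucleotide kinase, had 0 and 1 (vehicle) and 0 and 1 counts (capmatinib) in NF1-MET, against 1 and 2 (vehicle) and 11 and 11 counts (capmatinib) in NF1-MET;sgP53, and no fold is given for it. The remaining 4 enzymes were under the filter. *Oas1a*, an oligoadenylate synthetase, had 0 and 0 (vehicle) and 0 and 0 counts (capmatinib) in NF1-MET, against 1 and 1 (vehicle) and 5 and 5 counts (capmatinib) in NF1-MET;sgP53. *Oas2* had 0 and 1 (vehicle) and 0 and 1 counts (capmatinib) in NF1-MET, against 1 and 1 (vehicle) and 5 and 1 counts (capmatinib) in NF1-MET;sgP53, and *Oas3* had 0 and 0 (vehicle) and 1 and 0 counts (capmatinib) in NF1-MET, against 4 and 1 (vehicle) and 5 and 5 counts (capmatinib) in NF1-MET;sgP53. *Rsad2*, which encodes viperin, had 0 and 0 (vehicle) and 0 and 0 counts (capmatinib) in NF1-MET, against 7 and 5 (vehicle) and 5 and 16 counts (capmatinib) in NF1-MET;sgP53, with no count in NF1-MET and the most in NF1-MET;sgP53 with capmatinib.

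All 3 guanylate-binding proteins rose at least 2-fold in both lines. *Gbp2*, a GTPase that attacks the vacuoles of intracellular pathogens, was at 2.81 and 2.66 (vehicle) and 36.4 and 34.3 CPM (capmatinib) in NF1-MET, against 6.31 and 4.94 (vehicle) and 53.7 and 53.3 CPM (capmatinib) in NF1-MET;sgP53. Each group was clear of the next, and *Gbp2* rose by 3.67 (SE 0.0859, adjusted p = 5.78e-27) in NF1-MET, the largest rise there among members with at least 1 CPM, and by 3.26 (SE 0.0739, adjusted p = 4.21e-20) in NF1-MET;sgP53. *Gbp7*, a member of the same family, was at 0.799 and 1.05 (vehicle) and 4.16 and 4.48 CPM (capmatinib) in NF1-MET, against 2.12 and 2.18 (vehicle) and 8.34 and 8.21 CPM (capmatinib) in NF1-MET;sgP53. It rose by 2.20 (SE 0.194, adjusted p = 9.27e-12) and 1.94 (SE 0.124, adjusted p = 4.09e-12) in the respective lines with no overlap of groups. *Gbp3* rose by 2.90 (SE 0.227, adjusted p = 5.53e-13) and 2.43 (SE 0.138, adjusted p = 5.39e-13). These 3 genes lie within 107.7 kb on chromosome 3. *Mx1* and *Mx2*, of a family of dynamin-like proteins that trap viral nucleocapsids, were near the limit of detection. The annotation used here lists *Mx2* as a polymorphic pseudogene. *Mx1* had 0 and 0 (vehicle) and 0 and 4 counts (capmatinib) in NF1-MET, against 6 and 4 (vehicle) and 15 and 22 counts (capmatinib) in NF1-MET;sgP53 and was not tested in NF1-MET. *Mx2* had 2 and 1 (vehicle) and 4 and 3 counts (capmatinib) in NF1-MET, against 2 and 6 (vehicle) and 15 and 44 counts (capmatinib) in NF1-MET;sgP53. Both passed the filter only through NF1-MET;sgP53 with capmatinib, where they held the most counts, and no test is given for them.

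The ISG15 system attaches a ubiquitin-like protein to new proteins. *Isg15*, the modifier, was at 1.16 and 1.18 (vehicle) and 2.67 and 2.47 CPM (capmatinib) in NF1-MET, against 3.81 and 3.58 (vehicle) and 8.596 and 9.04 CPM (capmatinib) in NF1-MET;sgP53. Both vehicle libraries of NF1-MET;sgP53 exceeded both capmatinib libraries of NF1-MET. *Isg15* rose with capmatinib by 1.11 (SE 0.208, adjusted p = 1.82e-05) in NF1-MET and 1.26 (SE 0.108, adjusted p = 7.39e-10) in NF1-MET;sgP53. *Usp18*, the protease that removes ISG15 and holds back signalling at the type I receptor, was at 0.248 and 0.0752 (vehicle) and 0.398 and 0.312 CPM (capmatinib) in NF1-MET, against 0.291 and 0.468 (vehicle) and 2.27 and 2.92 CPM (capmatinib) in NF1-MET;sgP53. In NF1-MET its value was 1.11 (SE 0.577, adjusted p = 0.08697), and without vehicle replicate 1 it became 2.15 with an adjusted p of 0.0210. In NF1-MET;sgP53 both capmatinib libraries were far above all others, and *Usp18* rose by 2.73 (SE 0.291, adjusted p = 2.43e-08). *Herc6*, a ligase of ISG15 in the mouse, was at 0.551 and 0.677 (vehicle) and 1.45 and 1.28 CPM (capmatinib) in NF1-MET, against 1.51 and 1.498 (vehicle) and 1.93 and 2.59 CPM (capmatinib) in NF1-MET;sgP53. The treatments did not overlap in either line, and *Herc6* rose by 1.11 (SE 0.294, adjusted p = 0.00124) in NF1-MET and 0.59 (SE 0.215, adjusted p = 0.0199) in NF1-MET;sgP53. The latter call was lost with library totals (adjusted p = 0.0697), with DESeq2 (0.119), without vehicle replicate 2 (0.0535) and without capmatinib replicate 2 (0.286).

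All members of the PARP and DTX role rose in both lines. *Parp9*, an ADP-ribosyltransferase family member that works with the ligase DTX3L, was at 7.19 and 6.37 (vehicle) and 17.7 and 18.5 CPM (capmatinib) in NF1-MET, against 9.89 and 9.36 (vehicle) and 25.5 and 24.1 CPM (capmatinib) in NF1-MET;sgP53. The 4 groups were in the order of the whole set with no overlap, and *Parp9* rose by 1.41 (SE 0.0839, adjusted p = 5.52e-16) in NF1-MET and 1.37 (SE 0.0718, adjusted p = 1.39e-13) in NF1-MET;sgP53. Its partner *Dtx3l* rose by 1.36 (SE 0.0859, adjusted p = 2.19e-15) and 1.51 (SE 0.0732, adjusted p = 3.43e-14). The exons of the pair share 458 bases on opposite strands, so their values are not independent if strand was not used. *Parp12*, which ADP-ribosylates viral and host proteins, was at 10.2 and 11.3 (vehicle) and 24.9 and 24.3 CPM (capmatinib) in NF1-MET, against 14.7 and 15.7 (vehicle) and 31.1 and 29.8 CPM (capmatinib) in NF1-MET;sgP53. Here too no group overlapped, and *Parp12* rose by 1.18 (SE 0.0701, adjusted p = 5.26e-16) and 1.00 (SE 0.0621, adjusted p = 2.59e-12). *Parp14* rose by 2.37 (SE 0.112, adjusted p = 1.37e-18) in NF1-MET and 1.73 (SE 0.0991, adjusted p = 6.47e-13) in NF1-MET;sgP53.

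The remaining effectors all rose in both lines. *Ifi27*, the most abundant member per length with 21.2 CPM per kilobase of exon on average, was at 12.5 and 12.5 (vehicle) and 39.5 and 37.1 CPM (capmatinib) in NF1-MET, against 19.1 and 17.9 (vehicle) and 60.7 and 50.2 CPM (capmatinib) in NF1-MET;sgP53. It rose by 1.60 (SE 0.0609, adjusted p = 3.82e-21) in NF1-MET and 1.58 (SE 0.0683, adjusted p = 4.27e-15) in NF1-MET;sgP53, with no overlap of groups. *Samd9l*, a restriction factor that arrests translation, was at 6.53 and 6.97 (vehicle) and 22.1 and 24.6 CPM (capmatinib) in NF1-MET, against 14.2 and 14.5 (vehicle) and 37.5 and 37.01 CPM (capmatinib) in NF1-MET;sgP53. No groups overlapped, and *Samd9l* rose by 1.78 (SE 0.0801, adjusted p = 3.25e-19) and 1.38 (SE 0.0571, adjusted p = 2.12e-15). *Ifi44*, a cytoplasmic protein of the response, was at 0.2204 and 0.1504 (vehicle) and 1.73 and 1.35 CPM (capmatinib) in NF1-MET, against 0.291 and 0.445 (vehicle) and 5.53 and 4.93 CPM (capmatinib) in NF1-MET;sgP53. It was scarce in all 4 vehicle libraries and rose by 3.01 (SE 0.379, adjusted p = 2.02e-08) in NF1-MET and 3.79 (SE 0.229, adjusted p = 1.69e-12) in NF1-MET;sgP53, the largest rise in that line among members with at least 1 CPM. *Xaf1*, which binds XIAP, rose by 2.80 (SE 0.164, adjusted p = 3.18e-16) and 2.36 (SE 0.121, adjusted p = 8.84e-14). *Bst2*, which encodes tetherin and was next per length with 10.6 CPM per kilobase, rose by 0.59 (SE 0.113, adjusted p = 2.51e-05) and 0.85 (SE 0.0923, adjusted p = 3.55e-08). The other 3 genes, *Rtp4*, *Ifi35* and *Lgals3bp*, rose by 1.20, 1.01 and 0.98 in NF1-MET and by 1.44, 1.08 and 0.93 in NF1-MET;sgP53. *Rtp4* shares 296 exon bases with *Gm45338* on the same strand, which held 887 counts against 1012 for *Rtp4*.

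The difference between the lines chose the members and is described with no test. In vehicle, 26 of 37 members met the threshold that is used for tested genes with NF1-MET;sgP53 higher, and 0 with it lower, beside 10.9% of all genes called higher and 12.3% lower. Nothing is read from these counts, since the members were chosen on this difference. By the same threshold 15 were at least 2-fold higher, beside 1.40% of all genes. The median log2 difference was 0.99, and also 0.99 with genes near 0 counts at their bound. The smallest differences that met it were those of *Trim25*, 0.15 (SE 0.0408), and *Ifit2*, 0.22 (SE 0.0472), and those of *Irf1*, 0.19 (SE 0.0693), and *Eif2ak2*, 0.12 (SE 0.05099), did not. The largest differences of members with more than 3 counts in each group were those of *Ifit1*, 1.83 (SE 0.190), *Isg15*, 1.64 (SE 0.185), and *Gbp3*, 1.53 (SE 0.294). Among the transcription factors *Irf7* gave 0.99 (SE 0.403), *Irf9* 0.56 (SE 0.144) and *Stat2* 0.14 (SE 0.112). Library totals in place of TMM factors gave 8.84% of all genes higher and 5.13% lower in vehicle, beside 10.9% and 12.3%, with 26 members higher.

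With capmatinib in both lines, 36 members met the threshold with NF1-MET;sgP53 higher, beside 5.94% of all genes called higher and 6.34% lower (3.71% and 0.891% with library totals), and the exception was *Irf1* at -0.02 (SE 0.0446). At least 2-fold were 17, beside 0.780% of all genes, and the median log2 difference was 0.93. *Cmpk2*, *Mx1* and *Mx2* are among the 36 and had to differ, since they passed the filter only through NF1-MET;sgP53 with capmatinib. Which treatment showed the rise that chose the members is not recorded, so nothing is read from this count either. *Usp18* differed by 2.89 (SE 0.294), *Ifit1* by 2.71 (SE 0.216) and *Ifit3* by 2.40 (SE 0.307), each with both NF1-MET;sgP53 libraries above both NF1-MET libraries. *Isg15* differed by 1.78 (SE 0.122) and *Oasl2* by 1.98 (SE 0.119). At the other end *Ifit2* differed by 0.20 (SE 0.0529) and *Trim25* by 0.24 (SE 0.0398). By role, 3 of the 4 transcription factors met it, and every tested member of the other roles did.

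**Figure D4:**
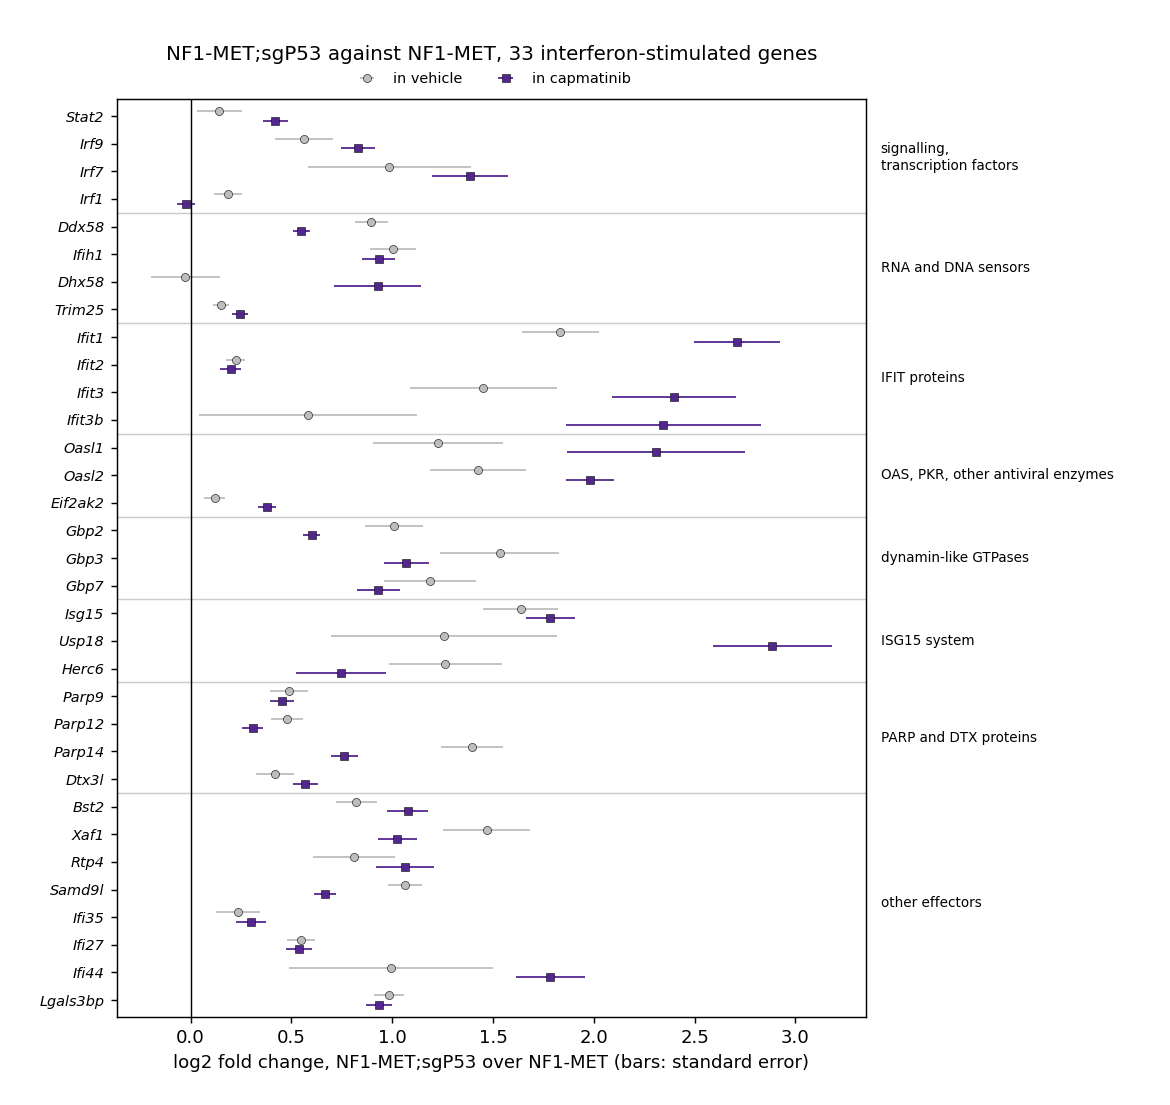
Log2 fold change of NF1-MET;sgP53 over NF1-MET for 33 members in vehicle (gray circles) and in capmatinib (purple squares), with bars for the standard error. The difference between the lines chose the members, and in capmatinib its values run from -0.02 for *Irf1* to 2.89 for *Usp18*.

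The last comparison asks whether the capmatinib responses of the lines differed. The interaction, the response in NF1-MET;sgP53 minus that in NF1-MET, had a median of 0.07 over the 37 members, beside -0.03 over all genes, and is a description since it is built on the same libraries. The responses of 2 members were larger in NF1-MET;sgP53 by the threshold, *Dhx58* by 0.93 (SE 0.288) and *Eif2ak2* by 0.24 (SE 0.0664), beside 3.85% of all genes. Those of 4 were smaller, *Parp14* with -0.65 (SE 0.167), *Gbp2* with -0.43 (SE 0.137), *Samd9l* with -0.42 (SE 0.0999) and *Ddx58* with -0.37 (SE 0.0878), beside 5.86%. Each of these 4 was higher in NF1-MET;sgP53 than in NF1-MET under both treatments. For a set of 37 the counts of 2 and 4 lie near the shares of all genes, and nothing is read from them. With library totals 2 members were larger and 0 smaller by the threshold, and with DESeq2's Wald test 0 were larger and 3 smaller.

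Upstream of the members, interferon transcripts were at or near 0 in every library. Of 21 interferon genes listed none was tested, 18 had 0 counts in all 8 libraries, and the others, *Ifnb1*, *Ifne* and *Ifnz*, held 1 or 2 counts in all. At most 1 count of the list was found in any library. Of 6 receptor chains 5 were tested, and *Ifnlr1* had 0 counts. *Ifnar2*, a chain of the type I receptor, was at 12.6 and 12.99 (vehicle) and 19.8 and 20.7 CPM (capmatinib) in NF1-MET, against 14.1 and 14.2 (vehicle) and 20.9 and 20.3 CPM (capmatinib) in NF1-MET;sgP53. Its treatments did not overlap, and it rose by 0.65 (SE 0.06902, adjusted p = 6.00e-10) and 0.54 (SE 0.0674, adjusted p = 2.86e-07) in the respective lines. *Ifnar1*, the other chain, rose by 0.27 (SE 0.0325, adjusted p = 9.48e-09) and 0.27 (SE 0.0353, adjusted p = 6.86e-07). *Ifngr1*, of the gamma receptor, rose by 0.43 (SE 0.04302, adjusted p = 1.36e-10) and 0.30 (SE 0.04099, adjusted p = 1.03e-06), and *Il10rb*, shared with the lambda receptor, by 0.52 (SE 0.0729, adjusted p = 1.44e-07) and 0.34 (SE 0.0746, adjusted p = 0.000331). *Ifngr2* gave 0.11 (SE 0.0349, adjusted p = 0.00615) and 0.03 (SE 0.0348, adjusted p = 0.521), and its sign turned to -0.075 in NF1-MET with library totals, with which 3 receptors were called higher for NF1-MET and 1 for NF1-MET;sgP53. Between the lines 0 of 5 receptors were called under either treatment by edgeR or by DESeq2. Before adjustment 1, *Ifnar1*, was under the threshold of 0.05 in edgeR under either treatment.

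*Jak2*, a kinase of the gamma receptor, rose by 0.61 (SE 0.0462, adjusted p = 2.38e-13) and 0.63 (SE 0.0493, adjusted p = 1.53e-10), and *Jak1*, a kinase of both arms, by 0.35 (SE 0.0242, adjusted p = 2.18e-14) and 0.29 (SE 0.0308, adjusted p = 1.98e-08). *Tyk2*, a kinase of the type I receptor, fell in NF1-MET, with -0.20 (SE 0.0586, adjusted p = 0.00308), and gave 0.01 (SE 0.0653, adjusted p = 0.937) in NF1-MET;sgP53. Between the lines in vehicle, *Jak1* was higher by 0.10 (SE 0.0274, adjusted p = 0.00802) and *Tyk2* lower with -0.27 (SE 0.0598, adjusted p = 0.00182) in NF1-MET;sgP53, and both calls were lost with library totals, as was the rise of *Jak1* with capmatinib in NF1-MET;sgP53 (0.17, adjusted p = 0.173).

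**Figure D5:**
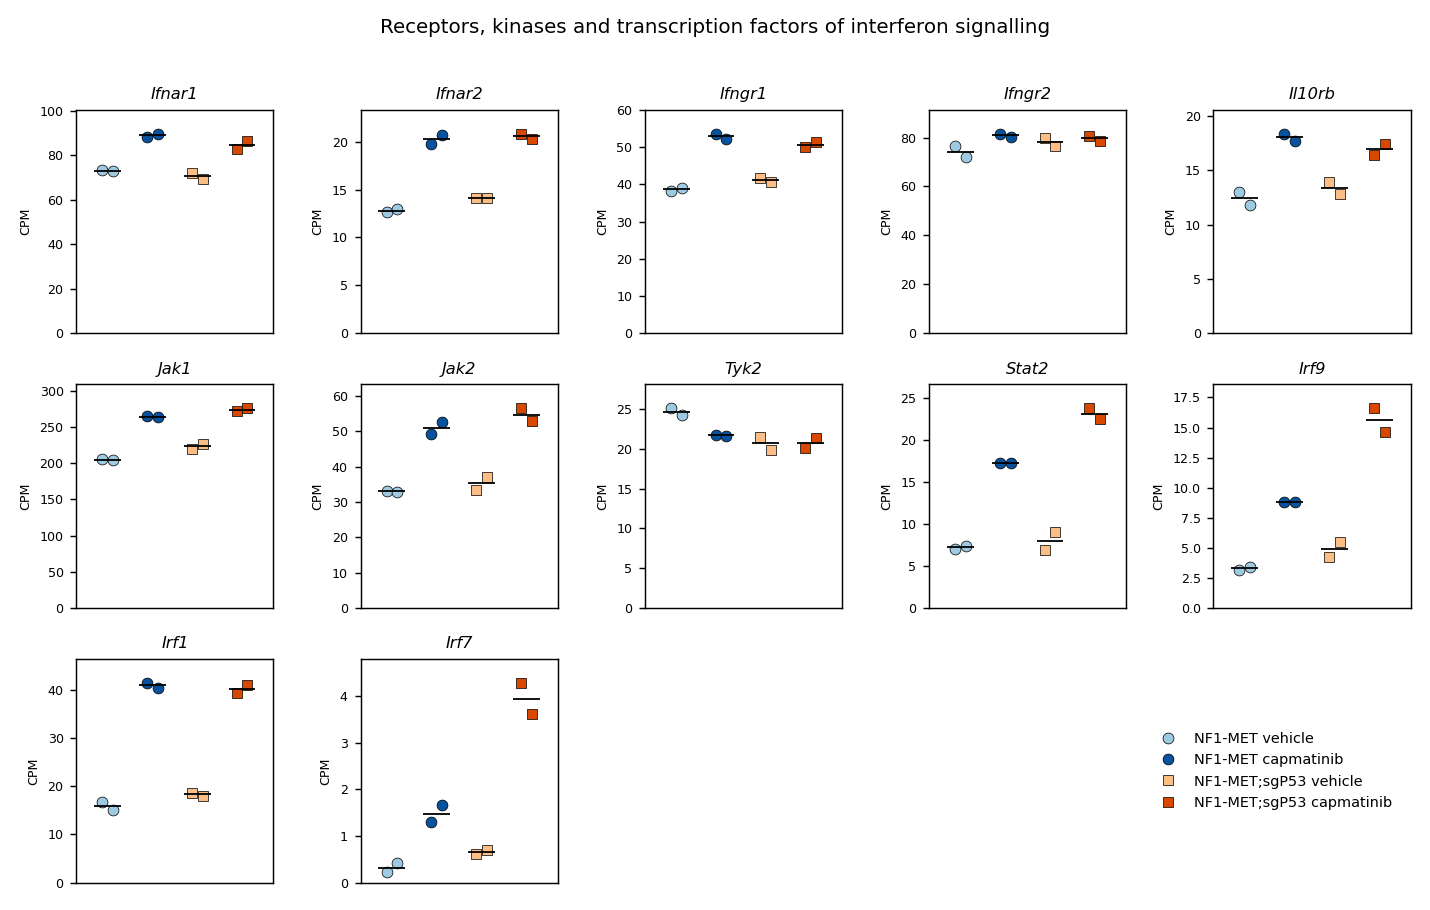
Levels in CPM, from 0 on each axis, of 5 receptor chains, 3 kinases and 4 transcription factors of the pathway in the 8 libraries, with bars for the mean of 2. *Stat2*, *Irf9*, *Irf1* and *Irf7* rose at least 2-fold with capmatinib in both lines, and the receptor chains and kinases changed less.

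A list of 72 further interferon-stimulated genes, none of them a member, was tested in all comparisons. It was drawn up with earlier results of these data known and holds genes of the same kind, so its line differences are not independent of the choice of the members. Of 59 tested, 38 rose and 6 fell with capmatinib in NF1-MET (median 0.94, with 10 called lower with library totals), and 43 rose and 7 fell in NF1-MET;sgP53 (median 0.85). Between the lines 20 were higher (8 with DESeq2's Wald test) and 3 lower in NF1-MET;sgP53 with vehicle (median 0.18), and 23 were higher and 0 lower with capmatinib (median 0.24, with 0 lower also with library totals), beside the shares of all genes given above (in vehicle 10.9% higher and 12.3% lower). *Lgals9*, which encodes a galectin, was at 3.25 and 3.23 (vehicle) and 28.7 and 27.3 CPM (capmatinib) in NF1-MET, against 10.7 and 10.5 (vehicle) and 41.2 and 43.5 CPM (capmatinib) in NF1-MET;sgP53. It rose by 3.09 (SE 0.0869, adjusted p = 9.51e-25) in NF1-MET and 2.00 (SE 0.0601, adjusted p = 7.07e-18) in NF1-MET;sgP53, and was higher in NF1-MET;sgP53 with vehicle by 1.69 (SE 0.104, adjusted p = 1.75e-10). *Gbp9* was higher there by 2.08 (SE 0.328, adjusted p = 7.16e-05). *Serping1*, an inhibitor of complement C1, was instead lower in NF1-MET;sgP53 with vehicle, at -1.27 (SE 0.202, adjusted p = 8.27e-05), and rose with capmatinib in that line by 3.17 (SE 0.145, adjusted p = 1.20e-14). *Uba7*, the activating enzyme of ISG15, rose in NF1-MET by 2.66 (SE 0.198, adjusted p = 1.37e-13). Among the genes that fell were *Mlkl*, *Pnpt1* and *Slfn9*, by -0.87, -0.70 and -0.54 in NF1-MET.

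Of 24 sensors and adaptors outside the members 20 were tested, and 10 rose and 6 fell in NF1-MET, beside 35.5% of all genes called higher and 34.7% lower, while 11 rose and 5 fell in NF1-MET;sgP53, beside 34.2% and 33.4%. With 20 genes these shares lie near those of all genes, and nothing is read from them for the list; with library totals 7 were called higher in NF1-MET;sgP53. *Tlr3*, a receptor of double-stranded RNA, rose by 1.50 (SE 0.134, adjusted p = 1.37e-11) and 1.13 (SE 0.116, adjusted p = 1.36e-08). *Cgas*, the sensor of cytosolic DNA, fell, with -0.67 (SE 0.0701, adjusted p = 4.83e-10) in NF1-MET and -0.85 (SE 0.0725, adjusted p = 6.72e-10) in NF1-MET;sgP53. *Mavs*, the adaptor of RIG-I and MDA5, fell, with -0.42 (SE 0.0465, adjusted p = 1.74e-09) and -0.33 (SE 0.04497, adjusted p = 1.09e-06). Of 16 negative regulators 15 were tested, and 6 rose and 7 fell in NF1-MET, while 5 rose and 4 fell in NF1-MET;sgP53, again near the shares of all genes, and with DESeq2's Wald test 4 fell in NF1-MET. *Samhd1*, which depletes nucleotides, rose by 1.41 (SE 0.0305, adjusted p = 5.92e-28) and 1.19 (SE 0.0366, adjusted p = 1.13e-17), and *Socs3*, an inhibitor of JAK signalling, by 0.65 (SE 0.0516, adjusted p = 7.53e-13) and 1.13 (SE 0.0438, adjusted p = 6.61e-16).

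The type I interferon genes other than *Ifnk* lie together on chromosome 4, and most of their neighbors there were expressed. *Cdkn2a*, a neighbor that encodes cell cycle inhibitors, was at 11.5 and 10.8 (vehicle) and 9.65 and 8.33 CPM (capmatinib) in NF1-MET, against 10.7 and 8.15 (vehicle) and 10.7 and 11.7 CPM (capmatinib) in NF1-MET;sgP53. Counts of this gene were thus found in each library, although the study describes its deletion in NF1-MET, from which NF1-MET;sgP53 was made, and the extent of that deletion, including whether it reaches the interferon genes, was not tested. Of 9 neighbors listed 8 were tested, and 3 rose and 5 fell in NF1-MET, while 4 rose and 3 fell in NF1-MET;sgP53. With library totals 1 was called higher in each line. Over all genes 35.5% and 34.2% were called higher in the respective lines and 34.7% and 33.4% lower. Nothing is read from the counts of this list. *Hacd4*, a fatty acid enzyme gene in this region, was at 3.88 and 3.03 (vehicle) and 33.6 and 31.8 CPM (capmatinib) in NF1-MET, against 4.22 and 4.42 (vehicle) and 32.8 and 32.2 CPM (capmatinib) in NF1-MET;sgP53. It rose by 3.23 (SE 0.0879, adjusted p = 3.99e-25) in NF1-MET and 2.91 (SE 0.0768, adjusted p = 6.67e-19) in NF1-MET;sgP53, with the lines close to each other under each treatment. *Mtap*, which recycles methylthioadenosine, fell, with -0.40 (SE 0.0209, adjusted p = 1.70e-17) and -0.33 (SE 0.0251, adjusted p = 9.02e-11).

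Members with and without an ISRE core responded over overlapping ranges. The log2 fold changes in NF1-MET ran from -0.31 to 3.67 in the 15 tested members with the core and from -1.46 to 2.80 in the 13 without it. By position, 19 of the 41 members lie in 7 clusters of neighbors at most 500 kb apart, and members of 1 cluster could differ in direction. In the IFIT cluster (chr19:34550694-34650009, mm10) *Ifit2* fell in NF1-MET;sgP53 while *Ifit1*, *Ifit3* and *Ifit3b* rose, and in the Oasl cluster (chr5:114896936-114937915) *Oasl2* rose in NF1-MET while *Oasl1* fell.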

How the data were processed

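The members and the gene lists were chosen with earlier results of these data known. Per the labels and the study's methods, the authors trimmed reads with Trim Galore 0.4.2, mapped them to mm10 with STAR 2.5.2b and deposited STAR's raw counts per gene; whether counting used strand is not given in the sources used here. The deposited counts were not normalized, and all 8 columns belong to the 8 libraries (0 other columns). The 224 rows without a symbol hold 0.00729% of counts.

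A gene needed 10 or more counts in 2 or more libraries (14497; those removed held 0.0396% of counts), with more than 0 counts in at least 2 libraries of each comparison. For each of 6 comparisons, edgeR 4.0.16 (R 4.3.3) computed TMM factors within its libraries and tested genes with the quasi-likelihood F-test, with p-values adjusted by Benjamini-Hochberg over every gene tested. The threshold was 0.05. Standard errors come from the log2 fold change and F. The biological coefficient of variation was 2.34% to 4.49%. Where a group held at most 3 counts, no fold is given. CPM used TMM factors over the 8 libraries. Gene positions came from GENCODE M21, which holds 50376 of the identifiers, and promoters from RefSeq tables. The scripts were tested on simulated data.

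Values per library are given for the 4 transcription factors, *Isg15*, *Ifit1* and *Usp18*, the 2 highest members by CPM in other roles, and the 2 largest rises and falls per capmatinib comparison with at least 1 CPM. Genes of other lists are all ligands, receptors and kinases, and up to 3 rises and 3 falls per list. The text names members outside this rule with fewer values, and *Hacd4* and other list genes from within it. Alternatives were DESeq2 1.42.0 (size factors and Wald test), library totals, no filter, a stricter filter, omission of *Gm42418*, all libraries in 1 model, the replicate number as a block, and each library left out; runs on genes outside the members and on *Trp53* were chosen after seeing the data. No other assay of the study was analysed here, and some genes are not reported here.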

Additional observations from a re-analysis of the deposited data

Results flagged for a closer look

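By the interaction term 6 of 37 members met the threshold, 2 (5.41%) with a higher and 4 (10.8%) with a lower value. Of all genes 3.85% were called higher and 5.86% lower (1.32% and 0.848% with library totals, 6.02% and 4.22% without *Gm42418*). For a set of this size the counts lie near those shares, and nothing is read from them. The 13 genes named here from the other lists met the threshold too, and at most 3 in each direction are named per list. Values are the log2 response in NF1-MET;sgP53 minus that in NF1-MET. For the members they are a description, since the interaction is built on the libraries that chose them. *Dhx58* gave 0.93 and *Eif2ak2* 0.24, with the larger response in NF1-MET;sgP53. *Ddx58* gave -0.37, *Gbp2* -0.43, *Parp14* -0.65 and *Samd9l* -0.42, with the larger response in NF1-MET. By the threshold 2 members were larger and 0 smaller with library totals, and 0 and 3 with DESeq2's Wald test. Leaving out NF1-MET vehicle replicate 2, NF1-MET capmatinib replicate 1 or NF1-MET;sgP53 vehicle replicate 1 left 0 members with a larger response in NF1-MET;sgP53, and the lowest count of members with a smaller one was 1, without NF1-MET vehicle replicate 2.

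Outside the members the difference was tested with edgeR's quasi-likelihood test and Benjamini-Hochberg adjustment. *Lgals9*, a galectin gene, gave -1.11 (adjusted p = 1.39e-07), from a higher vehicle level in NF1-MET;sgP53. *Serping1* gave 1.04 (0.00261) from a lower one, and *Ube2l6*, the conjugating enzyme of ISG15, gave 0.63 (0.00127). *Socs3* gave 0.47 (2.90e-05). Among genes of smaller differences, *Ifi47* gave -0.39 (0.00227), *Ifitm3* -0.26 (0.00265), *Mlkl* 0.30 (0.00341), *Samhd1* -0.25 (0.000723), *Ptpn11* -0.17 (0.00406) and *Traf3* -0.18 (0.0256). On chromosome 4 *Cdkn2a* gave 0.59 (0.00997), *Cdkn2b* 0.45 (5.25e-06) and *Focad* -0.25 (0.0355). The study describes *Cdkn2a* as deleted in NF1-MET cells, so what its counts measure is uncertain. With library totals the calls of *Traf3*, *Samhd1*, *Ptpn11*, *Mlkl*, *Ifi47*, *Ifitm3* and *Focad* were lost. The call of *Focad* (adjusted p from 0.0563 to 0.168) was lost without any library other than vehicle replicate 2 of either line. That of *Traf3* (0.0951 to 0.186) was lost without NF1-MET vehicle replicate 2, NF1-MET capmatinib replicate 2, NF1-MET;sgP53 vehicle replicate 1 or either NF1-MET;sgP53 capmatinib replicate, and that of *Cdkn2a* without NF1-MET vehicle replicate 1 (0.0517), NF1-MET capmatinib replicate 2 (0.0908) or NF1-MET;sgP53 vehicle replicate 2 (0.0873). *Ifitm3* lost its call without NF1-MET;sgP53 capmatinib replicate 2 (0.0556). The *Gm42418* share of counts was 10.0% and 1.11% in the replicates of NF1-MET;sgP53 with capmatinib. Without this transcript the calls of *Traf3* (0.0787) and *Focad* (0.0739) were lost, those of the other list genes were not, and 3 members in place of 4 had the smaller response in NF1-MET;sgP53.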

How the results depend on the processing

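With 2 libraries a group, depth limits the scarce members (*Mx1*, *Mx2*, *Cmpk2*, *Zbp1* and the 4 under the filter), and a lone library left after an omission is assumed to vary like the other groups. Library totals gave member medians (log2) of 1.08 for NF1-MET, 1.39 for NF1-MET;sgP53 and 1.29 over both lines with capmatinib, 1.05 between the lines in vehicle, 1.05 in capmatinib and 0.15 for the interaction, with 0 members below in the interaction and *Trim25* at -0.057 over both lines. By construction they shift all genes, which also turned *Ifngr2* (-0.075 in NF1-MET, -0.086 over both lines) and *Focad* (-0.057) with capmatinib and *Mllt3* (0.0063) between the lines. The stricter filter, which tests 29 members, gave medians of 1.39 in NF1-MET;sgP53, -0.024 for the interaction, 0.90 between the lines in vehicle and 0.76 in capmatinib, and 1 member lower over both lines. Without a filter the medians were 0.15 for the interaction and 1.02 between the lines in capmatinib. DESeq2's Wald test gave 1 member lower in NF1-MET and 0 above in the interaction, where the cause was not tested. Leaving out each library gave, for NF1-MET, medians of 1.19 to 1.37, 26 to 27 higher and 1 to 3 lower, for NF1-MET;sgP53 1.47 to 1.54, 32 to 34 and 1, over both lines 1.41 to 1.48, 33 to 34 and 1 to 2, for the interaction 0.022 to 0.12, 0 to 3 and 1 to 3, between the lines in vehicle 0.87 to 0.98 and 23 to 24 higher, and in capmatinib 0.90 to 1.00 and 33 to 35. A single lower call remained in NF1-MET without vehicle replicate 2 or capmatinib replicate 1. Same-numbered replicates deviated little together (r from -0.05 to 0.10), and whether they share a batch is not stated and was not tested. The replicate block moved no count of member calls by over 1.5 times. It gave 26 higher and 3 lower for NF1-MET, 34 and 1 for NF1-MET;sgP53, and 33 and 2 over both lines. For the interaction it gave 3 and 4, and between the lines 27 and 0 in vehicle and 36 and 0 in capmatinib. Of all genes in vehicle, 13.2% were called higher and 14.4% lower with the block, beside 10.9% and 12.3% without it. Values of the 22 members with levels per library were compared under all alternatives, and 1661 were unchanged by the rule used. For tested responses this means the same side of the threshold, and a turned sign counted only where a value was called. For line differences and the interaction it means a value within the spread over the choice of replicates. Of the others, 18 lost and 2 gained a call, 38 without a test moved beyond that spread and 1 turned. Outside the members, run after seeing the data, 2072 values were unchanged by the rule for tested responses, 123 lost and 5 gained a call and 4 turned.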
